A study of Mus musculus with 6 samples.

Results

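The levels of the annexin genes were compared in fibro/adipogenic progenitors (FAPs), stromal cells of muscle that give rise to fibroblasts and fat cells. The members are 8 annexin genes, Anxa1, Anxa2, Anxa4, Anxa5, Anxa6, Anxa7, Anxa8 and Anxa11, out of 14953 genes tested and 19938 named genes on the array. They were chosen by name, and each is represented by the probe set with the highest mean among those annotated to that gene alone. Anxa8 had drawn attention because it was lower than control with both of the reagents studied, so its differences from control are given here as a description and not as a test. The mouse has 12 annexin genes on this array. The other 4 (Anxa3, Anxa9, Anxa10 and Anxa13) are given beside the members.

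The treatment protocol names the tibialis anterior as the muscle, while the source names of the samples say hindlimb muscles. Tibialis anterior muscles of male C57Bl/6 mice aged 8 to 12 weeks had been injured with 30 µL of 50% glycerol. A vivo-morpholino (VMO), an antisense oligomer built to enter tissue and cover a given stretch of RNA, was injected 3 days later, and the FAPs were isolated 2 days after that. The 3 groups received a control VMO, pA-VMO, which covers polyadenylation sites, or 5'ss-VMO, which covers a 5' splice site. Both were aimed at the transcript of Pdgfra, a receptor for platelet-derived growth factor. Each group had 2 arrays, each from a separate pool of cells of 4 mice. Injury and an oligomer were common to all 3 groups, so an uninjured or uninjected level is not known.

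Annexins bind negatively charged phospholipids of membranes in the presence of calcium, through a conserved core, while a tail that differs between the members binds partners such as S100 proteins. They act in vesicle traffic, in the lipid-mediated control of inflammation and in the patching of torn plasma membranes, which is frequent in muscle. Annexin A2 outside the cell has also been linked to the formation of fat by FAPs in dystrophic muscle.

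Anxa8 and Anxa11 are shown first, because they were the members that lay below both control arrays on all 4 treated arrays. Both are on chromosome 14, Anxa8 from 34085979 to 34100571 and Anxa11 from 25842127 to 25886804 (GRCm38.p6), as is Anxa7 from 20455261 to 20480133. The other members lie on chromosomes 19 (Anxa1), 9 (Anxa2), 6 (Anxa4), 3 (Anxa5) and 11 (Anxa6). For both genes, the 250 bases before the transcript start used in the RefSeq promoter table are printed 5′ to 3′ (GRCm38.p6, plus strand, chr14:34085729-34085978 and chr14:25841905-25842154), with CG dinucleotides in capitals. The window of Anxa8 lies wholly before the annotated gene, while the last 28 bases of that of Anxa11 lie inside it.
Anxa8: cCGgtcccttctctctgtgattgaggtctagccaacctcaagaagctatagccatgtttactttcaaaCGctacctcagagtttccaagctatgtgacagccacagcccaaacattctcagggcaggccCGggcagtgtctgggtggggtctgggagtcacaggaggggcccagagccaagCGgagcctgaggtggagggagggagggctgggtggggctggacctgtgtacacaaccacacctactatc
Anxa11: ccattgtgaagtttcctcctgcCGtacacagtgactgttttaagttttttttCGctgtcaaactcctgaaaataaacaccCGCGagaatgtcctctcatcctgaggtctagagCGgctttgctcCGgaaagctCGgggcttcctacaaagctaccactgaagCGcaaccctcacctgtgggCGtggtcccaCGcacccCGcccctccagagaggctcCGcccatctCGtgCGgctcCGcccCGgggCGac
The window of Anxa8 held 4 CG dinucleotides and that of Anxa11 held 17, where the median over 32851 promoter windows was 6. The G+C content was 58.0% in both. The window of Anxa11 held the GC box GGGCGG at 3 places and the E-box CANNTG at 1, searched on both strands, and these motifs occurred in 32.7% and 66.2% of all windows. The window of Anxa8 held no match to either. Neither window held the TATA box TATAAA (12.4% of all windows), the AP-1 site TGANTCA (6.7%) or the STAT site TTCNNNGAA (7.0%). Promoter windows were matched for 9 of the 12 annexins.

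Anxa8, an annexin found mainly in epithelia and at endosomes, had a log2 level of 8.08 and 7.87 on the control arrays. It lay at 7.34 and 7.32 with pA-VMO and at 7.53 and 7.38 with 5'ss-VMO. All 4 treated arrays were below both control arrays, and the 2 control arrays lay further apart than the arrays of either treated group. The difference from control was -0.64 ± 0.087 (log2, SE; n = 2 arrays in each group) for pA-VMO, a level 1.56-fold lower with a 95% interval of -0.84 to -0.45. With 5'ss-VMO it was -0.52 ± 0.087, or 1.43-fold lower, with an interval of -0.72 to -0.32. Ordered by the difference, Anxa8 was number 7 from the lowest of 14953 genes with pA-VMO and number 10 with 5'ss-VMO. These ranks restate the values for which the gene was chosen. In bulk RNA, fewer cells that express a gene and less of its RNA per cell cannot be told apart.

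**Figure D1:**
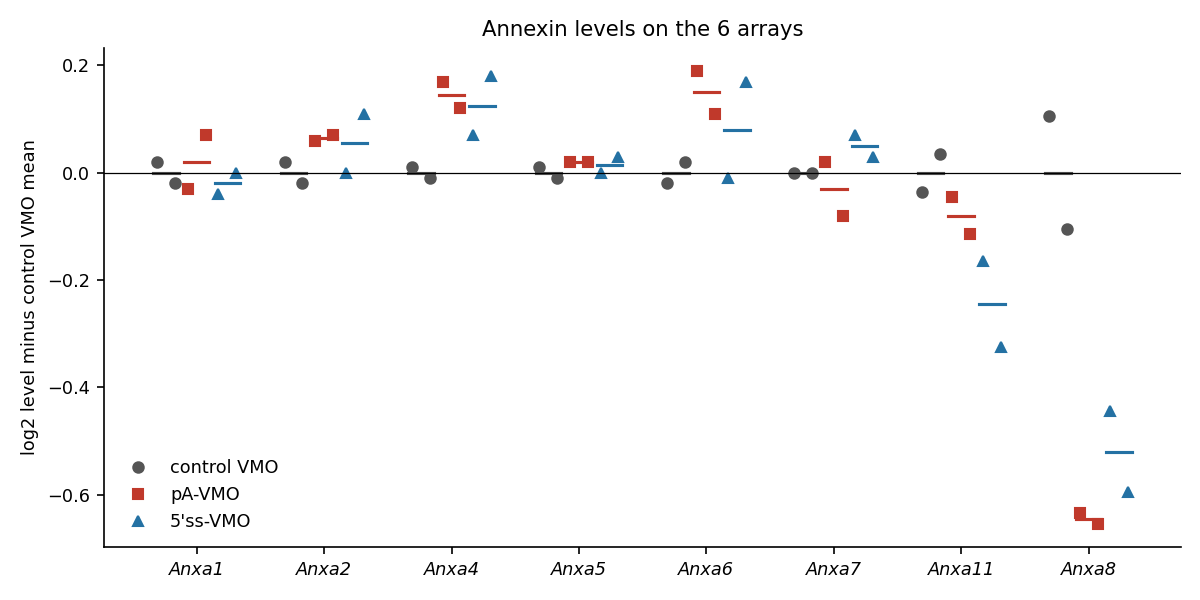
Log2 level of the 8 members on each of the 6 arrays, minus the mean of the 2 control VMO arrays; points are arrays and short lines are group means. Anxa8 lies 0.44 to 0.66 below its control mean on the 4 treated arrays, while the lowest value of any other member is that of Anxa11, -0.33.

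Anxa11, which has a long tail and links RNA granules to lysosomes, had log2 levels of 9.17 and 9.24 with control VMO, 9.16 and 9.09 with pA-VMO, and 9.04 and 8.88 with 5'ss-VMO. It was below both control arrays on all 4 treated arrays, though pA-VMO replicate 1 lay next to the lower control array. Its difference from control was -0.08 ± 0.075 with pA-VMO (log2, SE; 95% interval -0.25 to 0.09) and -0.25 ± 0.075 with 5'ss-VMO (-0.42 to -0.08). It was thus the second annexin with a negative difference whose interval, not adjusted for the number of genes, left out 0 with 5'ss-VMO, and it did not pass the test over all genes (limma adjusted p = 0.216). This interval overlapped that of Anxa8 with 5'ss-VMO, -0.72 to -0.32.

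Anxa4 and Anxa6 lay on the other side of control. Anxa4, an annexin of secretory epithelia, was at 9.38 and 9.36 on the control arrays, at 9.54 and 9.49 with pA-VMO, and at 9.44 and 9.55 with 5'ss-VMO. All 4 treated arrays were above both control arrays, with differences of 0.14 ± 0.067 (95% interval -0.01 to 0.29) and 0.12 ± 0.067 (-0.03 to 0.28). Anxa6, which has a larger core than the other annexins and takes part in membrane repair of muscle fibres, was at 9.86 and 9.90 with control VMO, at 10.07 and 9.99 with pA-VMO, and at 9.87 and 10.05 with 5'ss-VMO. Its pA-VMO arrays were above control (0.15 ± 0.077, interval -0.02 to 0.33), while its 5'ss-VMO arrays overlapped control (0.08 ± 0.077, interval -0.09 to 0.26). A second probe set annotated to Anxa6 was read at 5.38 and 5.64 with control VMO and between 5.39 and 5.61 on the treated arrays, and was not the one used.

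The remaining members stayed close to control. Anxa1, a protein induced by glucocorticoids that acts through formyl peptide receptors to restrain neutrophils, was at 11.96 and 11.92 with control VMO, 11.91 and 12.01 with pA-VMO, and 11.90 and 11.94 with 5'ss-VMO. Anxa2, which forms a complex with S100a10 at the cell surface, was at 11.43 and 11.39, at 11.47 and 11.48, and at 11.41 and 11.52 in the same order of groups. Its differences from control were 0.06 ± 0.067 and 0.05 ± 0.067 (log2, SE), with 95% intervals of -0.09 to 0.21 and -0.10 to 0.20. Anxa5, the protein used as a probe for phosphatidylserine on dying cells, varied least, between 11.91 and 11.95 over all 6 arrays. Anxa7, a partner of the calcium-binding protein sorcin, was at 8.29 on both control arrays, at 8.31 and 8.21 with pA-VMO, and at 8.36 and 8.32 with 5'ss-VMO. For Anxa1, Anxa5 and Anxa7 the differences from control ran from -0.03 to 0.05, and their intervals from -0.18 to 0.19.

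**Figure D2:**
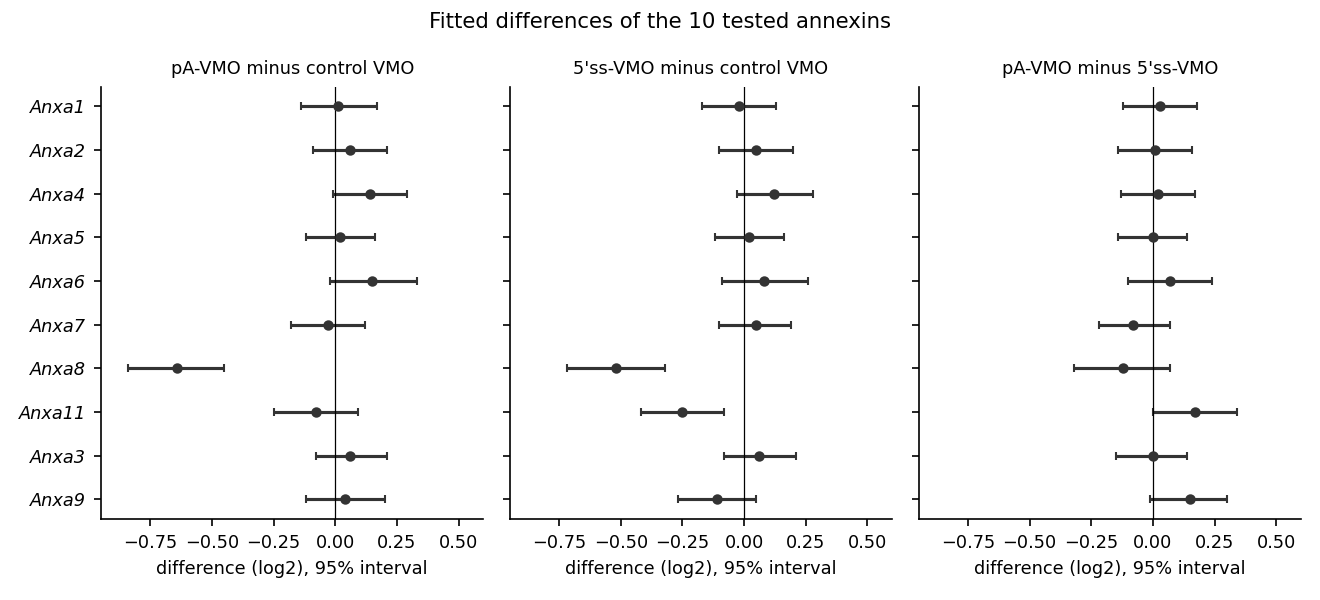
Fitted differences (log2) of the 10 tested annexins between groups, with 95% intervals from limma that are not adjusted for the number of genes. In the comparisons with control Anxa8 lies at -0.64 and -0.52, and the interval of Anxa11 with 5'ss-VMO, -0.42 to -0.08, is the other one that leaves out 0.

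Against control, Anxa11 shared the direction of Anxa8 on every treated array, and the differences of all 7 other members were smaller than that of Anxa8. Whether Anxa8 differs from each of them was not tested. Of the 7 others, 5 had a positive difference and 2 a negative one with each reagent, and those with a negative one were Anxa7 and Anxa11 with pA-VMO, and Anxa1 and Anxa11 with 5'ss-VMO. The signs of the smallest differences rest on single arrays, since without pA-VMO replicate 2 Anxa1 was at -0.04 and Anxa7 at 0.02 with pA-VMO, and without 5'ss-VMO replicate 2 Anxa6 was at -0.01 with 5'ss-VMO. The 7 ranged from -0.08 to 0.15 with pA-VMO and from -0.25 to 0.12 with 5'ss-VMO. Their medians were 0.018 and 0.045, where the medians of all genes tested were 0.013 and 0.001. The lowest bound of any of the 7 intervals was that of Anxa11 for each reagent, -0.25 with pA-VMO against -0.42 with 5'ss-VMO. The 2 comparisons share the control arrays and are not independent of each other.

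In the fit over all genes, 0 of the 8 members passed an adjusted p of 0.05 with pA-VMO (0.00669% of genes tested did; limma with Benjamini-Hochberg adjustment). With 5'ss-VMO 1 of 8 passed, which was Anxa8 (0.582% of genes tested did). Since Anxa8 was chosen on these comparisons, nothing is read from that count. The count was 0 whichever of the 6 arrays was left out. At an unadjusted p of 0.05 there was 1 member with pA-VMO (Anxa8) and there were 2 with 5'ss-VMO (Anxa8 and Anxa11), where 11.4% and 13.9% of all genes were that low. Among the 7 members other than Anxa8, 1 lay below control on all 4 treated arrays (Anxa11) and 1 above (Anxa4), against 8.38% and 10.3% of genes tested.

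**Figure D3:**
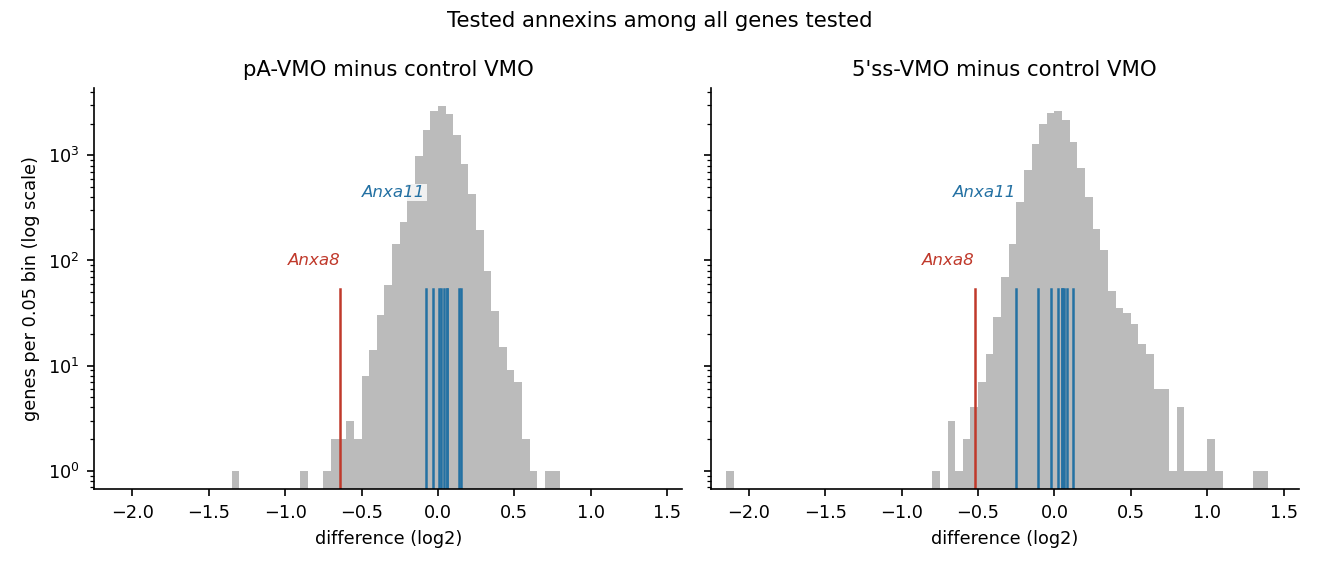
Number of genes (log scale) by difference from control VMO (log2, bins of 0.05) for 14953 genes, with a line for each of the 10 tested annexins (red, Anxa8; blue, the others). Anxa8 lies in the lower tail of both panels, and the other annexins lie between -0.08 and 0.15 with pA-VMO and between -0.25 and 0.12 with 5'ss-VMO.

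The reagents were then compared with each other, a comparison that did not choose the members although it uses the same treated arrays. Since Anxa8 drew attention as low with both reagents, its difference between them is not free of that choice. Of the 8 members 0 passed the test between pA-VMO and 5'ss-VMO (0.0602% of genes tested did; limma with Benjamini-Hochberg adjustment), and 0 had an unadjusted p under 0.05 (15.9% of genes tested did). Anxa8 was lower with pA-VMO by -0.12 ± 0.087 (log2, SE; 95% interval -0.32 to 0.07, adjusted p = 0.52). Both of its pA-VMO arrays were below both 5'ss-VMO arrays, as for 23.7% of genes tested. Anxa11 was higher with pA-VMO by 0.17 ± 0.075 (interval 0 to 0.34, adjusted p = 0.321), with both pA-VMO arrays above both 5'ss-VMO arrays, as for 25.5% of genes tested. Anxa7 was at -0.08 ± 0.066 (interval -0.22 to 0.07, adjusted p = 0.614). The other 5 members differed by 0 to 0.07 (adjusted p = 0.699 to 0.999). The intervals of the 8 members ran from -0.32 to 0.34, so the reagents are not shown to act alike on these genes.

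Of the 4 annexins outside the members, Anxa3 and Anxa9 passed the filter on low values (a mean log2 level of at least 5.209), and Anxa10 and Anxa13 did not. Anxa3, an annexin abundant in neutrophils, was at 8.94 and 8.93 with control VMO, and between 8.96 and 9.03 on the treated arrays, all above control, with a difference of 0.06 for each reagent. Anxa9 was near the filter, at 5.31 and 5.29, 5.38 and 5.30, and 5.25 and 5.14, with differences of 0.04 and -0.11. Anxa10, a gene of gastric epithelium, had a mean of 4.23 over the arrays and Anxa13, of gut and kidney epithelium, one of 5.16. Their group means differed from control by -0.05 to 0.08, untested. Over the 9 tested annexins other than Anxa8, 0 passed in either comparison with control (0.00669% and 0.582% of genes tested did; limma) and 0 and 1 had an unadjusted p under 0.05.

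The genes of proteins that work with annexins were read next. The list held 25 genes, of which 22 were tested. The formyl peptide receptor genes Fpr1, Fpr2 and Fpr3 had no probe set with a single symbol and were not analysed here. With pA-VMO 0 of 22 passed the test (limma; 0.00669% of genes tested did), with 5'ss-VMO 0 (0.582%), and between the reagents 0 (0.0602%). At an unadjusted p under 0.05 there were 1, 2 and 3 of the 22, where 11.4%, 13.9% and 15.9% of genes tested were that low, so these counts are near the background. The list's median difference was 0.051 and 0.016 from control and 0.013 between the reagents.

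S100a10, S100a11 and S100a6 bind the tails of annexins A2, A1 and A11. S100a10 was at 11.46 and 11.30 with control VMO, and between 11.32 and 11.40 on the treated arrays. S100a11 was at 12.28 and 12.27 with control VMO, at 12.32 on both pA-VMO arrays, and at 12.35 and 12.33 with 5'ss-VMO. S100a6 was at 10.98 and 10.95, at 10.93 and 10.90, and at 10.84 and 10.98 in the same order. These 3 genes differed from control by -0.05 to 0.06 (adjusted p = 0.695 to 0.933, limma).

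S100a4, a calcium-binding protein of fibroblasts and macrophages that also binds annexin A2, was at 9.04 and 8.82 with control VMO and at 9.05 and 9.14 with pA-VMO. With 5'ss-VMO it was at 8.13 and 8.87, so that 1 array of that group stood apart from the other 5. Its difference between the reagents was 0.60 ± 0.192 (log2, SE; adjusted p = 0.189). Without 5'ss-VMO replicate 2 it was 0.97 (adjusted p = 0.03), a fit in which that group is the 1 outlying array and is assumed to vary like the other groups, and without 5'ss-VMO replicate 1 it was 0.23 (adjusted p = 0.438). Against control it lay at -0.43 with 5'ss-VMO (adjusted p = 0.358), at -0.80 without replicate 2 (adjusted p = 0.0397, under the same assumption) and at -0.07 without replicate 1 (adjusted p = 0.86).

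**Figure D4:**
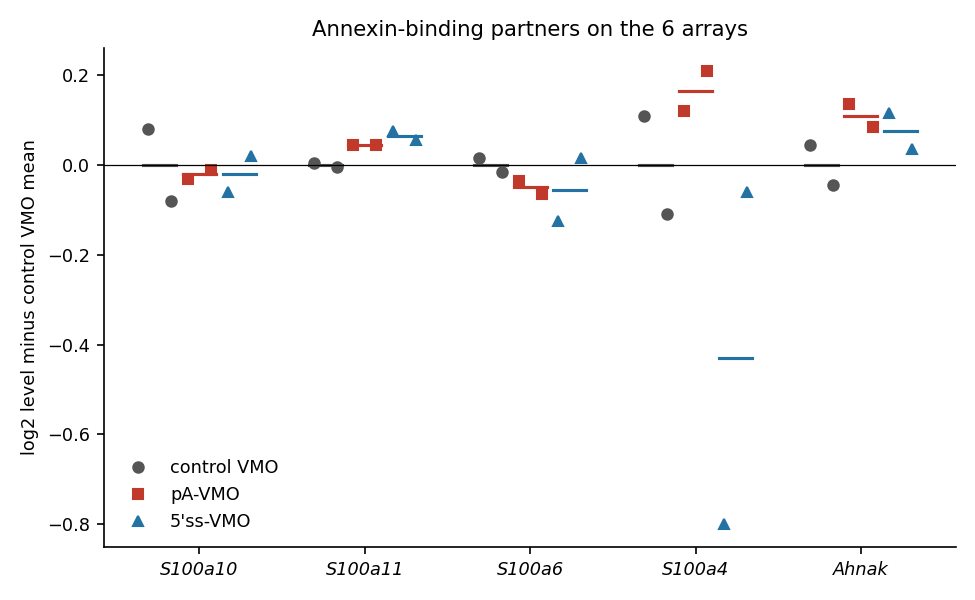
Log2 level of 4 S100 genes and Ahnak on the 6 arrays, minus the control VMO mean; points are arrays and short lines are group means. S100a4 on 5'ss-VMO replicate 1 stands apart from the rest at 8.13, where its control mean is 8.93.

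Of the membrane repair genes all 7 were tested and 0 passed (limma; 0 at an unadjusted p under 0.05 against control). Ahnak, a large scaffold that binds the complex of annexin A2 and S100a10, was at 9.98 and 9.89 with control VMO, 10.07 and 10.02 with pA-VMO, and 10.05 and 9.97 with 5'ss-VMO (differences of 0.11 ± 0.068 and 0.08 ± 0.068, log2, SE). All 7 lay above 0 with 5'ss-VMO, from 0.02 to 0.14, and 5 of 7 with pA-VMO. Over the 14953 genes tested, 7542 and 8252 lay above 0 in the same order. Of the 4 genes of plasminogen activation, a process that the annexin A2 complex promotes, the differences ran from -0.07 to 0.21 with pA-VMO and from -0.09 to 0.03 with 5'ss-VMO. Cd63, a tetraspanin whose traffic annexin A8 has been linked to, was at 10.38 and 10.35 with control VMO and between 10.30 and 10.38 on the treated arrays.

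The genes next to Anxa8 on the chromosome were not used in the choice of members. Of the 3 nearest named genes on each side, 4 were tested, Zfp488, Gm5460, Gprin2 and Syt15, and 0 of them passed in any comparison (limma). Of all genes tested, 0.00669% passed with pA-VMO, 0.582% with 5'ss-VMO and 0.0602% between the reagents, so nothing is read from that count. Gm5460 had an unadjusted limma p of 0.0192 between the reagents, where 15.9% of genes tested were under 0.05. The 4 tested neighbours lay between -0.08 and 0.12 with pA-VMO, and between -0.18 and 0.02 with 5'ss-VMO. The other 2 neighbours, Antxrl and Npy4r, were below the filter on low values, at 4.39 to 5.15 over the arrays. The lowest bound of the 4 tested neighbours' intervals against control was -0.38, that of Gm5460 with 5'ss-VMO.

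By likeness over the 6 arrays (Pearson r, among 681 genes whose arrays spanned at least 0.5 on the log2 scale), the 5 genes nearest to Anxa8 were Abca6 (r = 0.986), Cyp2f2 (0.971), Mmp13 (0.961), C1qtnf1 (0.959) and Slc40a1 (0.92). The arrays fall into control and treated ones, so r mostly repeats the split for which Anxa8 was chosen and is given as a description. Abca6, a lipid transporter, was at 7.73 and 7.46 with control VMO, 7.03 and 7.02 with pA-VMO, and 7.23 and 6.96 with 5'ss-VMO, and as with Anxa8 its first control array was the higher. Mmp13, a collagenase, was at 10.27 and 10.03, 9.38 and 9.58, and 9.73 and 9.37. Cyp2f2, a cytochrome P450, was at 8.20 and 8.13, 7.75 and 7.66, and 7.75 and 7.65. The other 2 are C1qtnf1, a secreted protein of the C1q family, at 8.11 and 8.03, 7.58 and 7.67, and 7.85 and 7.76, and Slc40a1, the iron exporter ferroportin, at 7.07 and 6.84, 6.70 and 6.56, and 6.78 and 6.74. All 5 lay below both control arrays on all 4 treated arrays, a pattern that the choice by likeness favours.

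**Figure D5:**
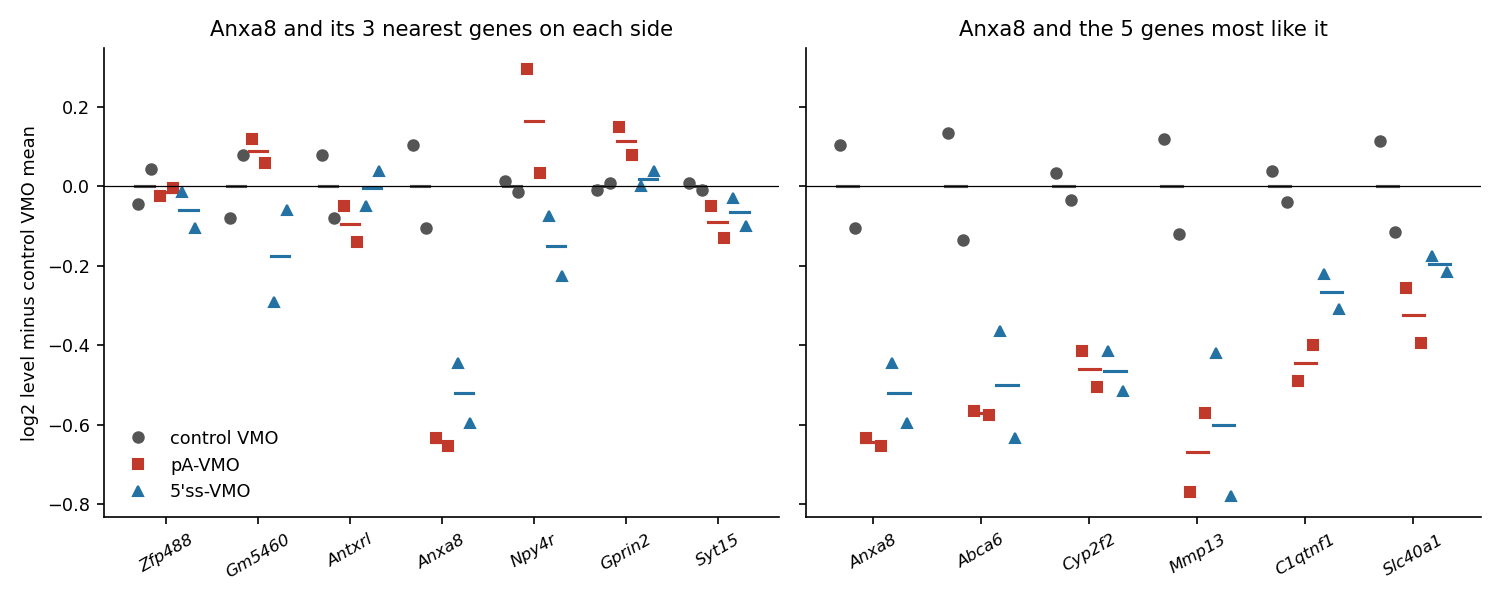
Log2 level minus the control VMO mean on the 6 arrays for Anxa8 with its 3 nearest named genes on each side (left, in order of position) and with the 5 genes of highest r (right); points are arrays and short lines are group means. The tested neighbours stay between -0.18 and 0.12 in their group means, while Anxa8 lies at -0.64 and -0.52.

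Levels of cell type markers also differed between the groups. The FAP markers, 7 of 8 of them read (Ly6a had no probe set with a single symbol), had a mean log2 level of 12.15 and 12.10 on the control arrays and of 11.98 to 12.05 on the treated ones. The 8 macrophage markers had a mean of 6.77 and 7.02 with control VMO and of 7.12 to 7.23 with either reagent. All 8 had a positive difference with each reagent. For pA-VMO, both treated arrays lay above both control arrays for 5 of 8, and for the other reagent this held for 7 of 8. Among the 14953 genes tested, 8252 and 7542 had a positive difference in this order. Both treated arrays lay above both control arrays for 3608 and 3475 of them. With pA-VMO 0 of 8 passed (limma; 0.00669% of genes tested did) and 4 had an unadjusted p under 0.05 (11.4% of genes tested did). With 5'ss-VMO 2 of 8 passed, C1qa and C1qc (0.582% of genes tested did), and 5 had an unadjusted p under 0.05 (13.9% of genes tested did). The 5 endothelial markers had a mean of 5.71 and 5.94 with control VMO, 5.99 and 5.96 with pA-VMO, and 6.15 and 6.16 with 5'ss-VMO. Of the 4 that were tested, 1 passed with 5'ss-VMO, the vascular cadherin Cdh5 (0.70, limma adjusted p = 0.00551), while Pecam1 was at 0.47 (adjusted p = 0.0517) and Tek at -0.19. The 5 pericyte and smooth muscle markers were at 6.99 and 6.94 with control VMO and at 7.08 to 7.19 with treatment. Both treated arrays lay above both control arrays for 4 of 5 with pA-VMO and 5 of 5 with 5'ss-VMO (3608 and 3475 of 14953 genes tested). With each reagent 3 of 5 had an unadjusted limma p under 0.05 (11.4% and 13.9% of genes tested). With pA-VMO 0 passed, and with 5'ss-VMO 1 passed, Mcam (0.42, limma adjusted p = 0.0443). The 6 satellite cell and myoblast markers were at 6.33 and 6.49 with control VMO, 6.43 and 6.45 with pA-VMO, and 6.73 and 6.62 with 5'ss-VMO. All 6 had a positive difference with 5'ss-VMO, of which 0 passed (limma; 4 at an unadjusted p under 0.05, where 13.9% of genes tested were that low). The 5 epithelial and mesothelial markers, read because Anxa8 is a gene of epithelia, were at 5.77 on both control arrays and at 5.65 to 5.87 on the treated arrays, and 1 of them (Epcam) was below the filter. The 3 perineurial markers were at 7.94 and 7.81 with control VMO and at 7.67 to 7.85 with treatment. With pA-VMO and 5'ss-VMO, Cldn1 differed from control by -0.16 and -0.25, Itgb4 by 0.04 and -0.20, and Slc2a1 by -0.02 and -0.01. At an unadjusted limma p under 0.05 there were 1 and 2 of the 3 (11.4% and 13.9% of genes tested), and 0 passed. The 6 tenocyte markers were at 8.63 and 8.52 with control VMO and at 8.30 to 8.62 with treatment, and 1 of them, Kera, fell by 1.32 with pA-VMO and by 0.69 with 5'ss-VMO (limma adjusted p = 0.0232 and 0.0474). The other tenocyte markers lay between -0.07 and 0.16, apart from Tnmd at -0.43 with pA-VMO (limma adjusted p = 0.432), and 4 of the 6 had a positive difference with pA-VMO and 3 of 6 with 5'ss-VMO (medians of 0.052 and 0.036). The means of the muscle fibre, Schwann cell, lymphocyte and neutrophil markers differed from control by -0.17 to 0.12. With either reagent 0 of these markers passed (limma, 0.00669% and 0.582% of genes tested did). At an unadjusted limma p under 0.05 there was 1 of 2 tested lymphocyte markers with pA-VMO (11.4% of genes tested). With 5'ss-VMO there were 2 of 3 Schwann cell markers and 1 of 4 tested muscle fibre markers (13.9% of genes tested). The 3 Schwann cell markers read were below both control arrays on all 4 treated arrays, as were 8.38% of genes tested. The part of these shifts in the values of the annexins was not tested. Pdgfra, the target, had log2 levels of 11.24 to 11.37 on all arrays. Which stretch of the transcript its probe set reads was not analysed here, so its level checks neither reagent.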

How the data were processed

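RNA of 6 FAP pools was measured on Affymetrix Mouse Gene 1.0 ST arrays. The log2 values deposited by the authors came from Affymetrix Expression Console with RMA, per the submitters' processing notes; its settings and version were not found in these sources. RMA equalises the distributions of the arrays and shrinks differences of dim probe sets, and the number of arrays limits the precision. Of 35556 probe sets, 21789 have 1 gene symbol in the platform annotation, 1621 several and 12146 none; those with 1 symbol stand for 19938 genes, and 21698 of them matched a RefSeq gene ID. The highest-mean probe set was taken per gene, and 14953 genes at or above the 25th percentile of the mean (5.209) were kept.

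A model with a mean per group was fitted to all 6 arrays in limma 3.58.1 (R 4.3.3), with 3 residual and 6.06 prior degrees of freedom. Tests are two-sided, with Benjamini-Hochberg adjustment over all genes tested and calls under 0.05. With 2 against 2 arrays the smallest exact permutation p is 0.333. Simulated data with 200 changed genes among 14953 gave back 99% of differences of 0.5 (log2) for 5'ss-VMO against control VMO, with 6.56% of calls false. The simulated noise was normal, with each gene's variance as limma estimated it, and the planted differences were 0.5, 1 or 2. More genes were changed than the 87 called in the data, which eases the adjusted threshold. The 99% is therefore not the share of such differences found in these data.

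The members and lists were chosen with earlier results of these data known. The genes named are the 12 annexins, 5 set partners and any partner called, the 5 genes of highest Pearson r with Anxa8 and the 3 nearest named genes on each side of it. S100a4 was followed further, and some partners and markers outside this rule were named, after their values were seen. No scanner files or dates were used, so array batches could not be tested.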

Additional observations from a re-analysis of the deposited data

How the results depend on the processing

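Each difference was recomputed with no filter or one at the 50th percentile, the mean of a gene's probe sets, other variance models and scalings, the 4 arrays compared alone, the replicate number as a block, and each array left out. Anxa8 stayed below control in all of these, from -0.75 to -0.54 with pA-VMO and from -0.63 to -0.41 with 5'ss-VMO. With an eBayes trend it passed with pA-VMO too, so that 1 member was called. With 5'ss-VMO the count of members called was 0 with no filter, 0 on the 4 arrays compared and 0 with any array left out. For the other 9 tested annexins, 399 of 429 recomputed values moved by less than 1 SD between replicates (against control) or kept their direction and their side of the threshold (between the reagents). Many of the values could not move. The filters, the variance models, the replicate block and the 4 arrays compared alone leave a gene's difference unchanged. So does leaving out an array of the group that is not compared. The count is therefore no measure of stability.

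The genes called with pA-VMO against control numbered 0 with no filter, 51 with a trend and 0 to 2 with an array left out. With 5'ss-VMO they numbered 24 with no filter, 181 with the 50th percentile, 266 with a trend, 51 after quantile normalization and 8 to 76 with an array left out. Between the reagents the same settings gave 3, 102, 197, 5 and 1 to 18, and the mean of the probe sets gave 15.

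The median of the other 7 members with an array left out ran from 0.011 to 0.065 with pA-VMO, from -0.004 to 0.046 with 5'ss-VMO and from -0.018 to 0.067 between the reagents. With the mean of the probe sets it was 0.02 with 5'ss-VMO. Some small differences changed sign when an array was left out. Against control, Anxa1 ran from -0.04 to 0.07 and Anxa7 from -0.08 to 0.02 with pA-VMO, and Anxa6 from -0.01 to 0.17 with 5'ss-VMO, while Anxa4 ran from 0.07 to 0.18 and Anxa11 from -0.33 to -0.17 with 5'ss-VMO without a change of sign. Between the reagents, Anxa1 ran from -0.02 to 0.08, Anxa2 from -0.04 to 0.07, Anxa3 from -0.04 to 0.03, Anxa4 from -0.03 to 0.07, Anxa5 from -0.02 to 0.02 and Anxa6 from -0.02 to 0.16. After quantile normalization Anxa5 was at -0.02 and Anxa3 at 0.02, and Anxa3 was at 0.01 with arrays centred on their median. The cause was not tested.

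Same-numbered arrays did not deviate together (correlations of -0.102, 0.021 and -0.035), so the numbers are not taken as pairs. With the replicate block 1, 90 and 23 genes were called in the 3 comparisons, Anxa8 was at -0.64 and -0.52 against control, and the count of members called did not change. With the pA-VMO numbers crossed, a setting chosen after seeing the data, 5, 58 and 8 genes were called.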
